A study of Mus musculus with 2 samples.

Results

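The genes described here are 7 members of the plasminogen activator and serpin systems in single-cell RNA sequencing (scRNA-seq) of amputated mouse digits: *Plau*, *Plat*, *Plaur*, *Serpine2*, *Serpinb2*, *Serpinf1* and *Serpinh1*. They were taken by gene symbol from a fixed list, chosen with earlier results of these data known. All 7 were found among the 33696 genes counted in both libraries. 4 of them carry a Serpin symbol, beside 60 other genes with such a symbol. The list is broader than its name, since *Plaur* encodes a receptor, and since *Serpinf1* and *Serpinh1* are serpins by sequence that do not inhibit proteases.

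Plasminogen is a circulating zymogen that urokinase (encoded by *Plau*) and tissue plasminogen activator (*Plat*) cleave to plasmin, a broad protease that dissolves fibrin and activates other matrix-degrading enzymes. The urokinase receptor (*Plaur*) holds urokinase at the cell surface, where it acts during cell migration through a wound. Serpins are a fold family whose inhibitory members trap a target protease irreversibly: *Serpine2* encodes protease nexin-1, an inhibitor of thrombin and of both plasminogen activators, and *Serpinb2* encodes plasminogen activator inhibitor 2. *Serpinf1* encodes pigment epithelium-derived factor (PEDF), a secreted anti-angiogenic protein that binds collagen, and *Serpinh1* encodes Hsp47, a chaperone of the endoplasmic reticulum needed for collagen folding.

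In the Genome Reference GRCm39 with GENCODE vM39 annotation, *Plau* (ENSMUSG00000021822) lies at chr14:20886722-20893453 and *Plat* (ENSMUSG00000031538) at chr8:23247709-23272871, both on the plus strand. *Plaur* (ENSMUSG00000046223) lies at chr7:24161875-24175394 and *Serpinb2* (ENSMUSG00000062345) at chr1:107428593-107463208, also on the plus strand. On the minus strand are *Serpine2* (ENSMUSG00000026249) at chr1:79763323-79839144, *Serpinf1* (ENSMUSG00000000753) at chr11:75299998-75322362 and *Serpinh1* (ENSMUSG00000070436) at chr7:98994220-99005076.

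The digits came from neonatal ICR mice whose hindlimb digits 2 and 4 were amputated through the middle phalanx (P2) at postnatal day 3. An agarose bead soaked in FGF8 (500 ng/µl), a fibroblast growth factor, or in 0.1% bovine serum albumin (BSA) was implanted at postnatal day 7, and the tissue was dissociated at postnatal day 8, 24 h after the bead. Both groups thus shared strain, age, amputation, bead and dissociation, and differed by label in the protein on the bead. Each group was 1 library of pooled cells from 20 digits of 5 mice of both sexes, and by the study's methods the FGF8 pool probably held digits that would not have regenerated. With 1 library per group there was no replicate check and no test: treatment, animals, dissection and library cannot be told apart, and every interval given is an exact 95% interval that covers counting error only.

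The FGF8 library held 7249 cell barcodes and 124889213 unique molecular identifiers (UMIs, counted transcripts), and the BSA library 3703 barcodes and 67739460 UMIs. After filters on detected genes and mitochondrial share, 6715 and 3252 cells remained, with medians of 12251 and 15377 UMIs. The libraries shared 6 barcodes, of which 4 passed in each of them. Cells fell into 13 groups, 12 of them named as X-like from marker genes. The sexes were unevenly mixed: by *Xist* and Y-linked UMIs, 24.5% of the sex-called fibroblast-like cells were female with FGF8 and 79.5% with BSA. Levels are given as CPM, the gene's UMIs scaled to a common total of 1000000 UMIs over the summed cells of a type, and differences as log2 ratios of CPM, FGF8 over BSA. Levels of different genes are not compared with each other.

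The promoter sequences that RefSeq gives for GRCm38.p6 (250 bases before to 50 after the transcript start) were available for 5 of the 7 members, the exceptions being *Plau* and *Plat*. 3 are shown, for *Plaur* and *Serpine2*, both higher in fibroblast-like cells with FGF8, and for *Serpinf1*, the member with the largest difference in the other direction. *Serpinb2*, an inhibitor gene also higher there but on 67 and 16 UMIs, is not shown. Capitals mark 2 motifs searched on both strands: TGANTCA, the AP-1 element, which reads the same on either strand, and AGGAAG, an Ets core.
Plaur (chr7:24462233-24462532, plus strand): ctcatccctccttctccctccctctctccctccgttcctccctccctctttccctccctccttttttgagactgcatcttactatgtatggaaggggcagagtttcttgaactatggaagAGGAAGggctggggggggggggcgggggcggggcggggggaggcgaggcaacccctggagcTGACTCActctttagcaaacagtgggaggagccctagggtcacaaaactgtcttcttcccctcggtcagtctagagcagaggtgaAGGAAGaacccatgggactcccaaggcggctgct
Serpine2 (chr1:79858616-79858915, minus strand): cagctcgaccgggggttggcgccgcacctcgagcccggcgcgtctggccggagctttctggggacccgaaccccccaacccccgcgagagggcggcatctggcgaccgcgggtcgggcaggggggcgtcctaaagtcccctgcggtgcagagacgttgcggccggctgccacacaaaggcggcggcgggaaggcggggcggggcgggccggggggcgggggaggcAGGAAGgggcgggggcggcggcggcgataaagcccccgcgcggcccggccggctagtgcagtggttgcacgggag
Serpinf1 (chr11:75422574-75422873, minus strand): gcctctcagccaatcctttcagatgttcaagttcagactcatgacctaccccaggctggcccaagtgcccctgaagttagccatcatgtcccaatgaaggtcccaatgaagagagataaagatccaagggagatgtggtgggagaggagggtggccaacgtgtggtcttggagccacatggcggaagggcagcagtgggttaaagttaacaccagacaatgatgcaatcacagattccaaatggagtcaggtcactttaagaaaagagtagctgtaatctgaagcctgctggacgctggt
The *Plaur* window held 1 TGANTCA match, 69 bases before the start, and 2 AGGAAG matches, 130 bases before and 17 bases after it. The *Serpine2* window held an AGGAAG match 25 bases before the start and no TGANTCA match. Neither motif occurred in the windows of *Serpinf1* and *Serpinh1*, and *Serpinb2* had a TGANTCA match 94 bases before the start of the first of its 2 annotated windows. Of all 32851 windows, 7.81% held TGANTCA, 35.4% AGGAAG and 2.84% both, so these matches describe the letters in the windows and not a binding site.

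The question of the main comparison was how far the fibroblasts of the digit, the most abundant cell type, differed in these genes between the FGF8 and the BSA bead. Fibroblast-like cells numbered 3579 (53.3% of kept cells) with FGF8 and 1845 (56.7%) with BSA, with medians of 17345 and 18950 UMIs. They came from a cluster of 3818 and 2019 cells that still held keratinocyte-like cells. All 6 fibroblast markers on the list (*Pdgfra*, *Col1a1*, *Col1a2*, *Dpt*, *Lum* and *Dcn*) were detected in that whole cluster. Both genes of the urokinase pair were higher with FGF8, *Plat* was at the same level, *Serpine2* was moderately higher, and the non-inhibitory *Serpinf1* and *Serpinh1* were lower. 3 of the 7 members were more than 2-fold higher and 0 more than 2-fold lower. Of all 20113 genes with at least 10 UMIs in these cells, 6.8% were more than 2-fold higher and 4.99% more than 2-fold lower. The members were chosen with earlier results of these data known, *Plau* among them as higher. The count beside these shares is therefore a description and not independent evidence. 5 of the 7 log2 ratios were above 0, among them *Plat* at 0.01, with an interval that spans 0, and *Serpinb2* on only 67 and 16 UMIs. The median of the 7 was 0.48, where the median of all genes was −0.07.

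*Plau*, which encodes urokinase, was at 22.4 CPM (1572 UMIs) in fibroblast-like cells with FGF8 and at 7.58 CPM (271 UMIs) in those with BSA. The FGF8 level was 2.96-fold higher, a log2 ratio of 1.56 (95% interval 1.38 to 1.76). The study had selected this gene as higher on these same cells, so the value is not independent evidence of its direction. At least 1 UMI was found in 17.6% of the FGF8 and 7.70% of the BSA cells. In erythroid-like cells, which should lack the gene, the shares were 1.14% and 0 of 82 (a limit of 3 cells allows a share of up to 3.66%), at median depths of 6983 and 18542 UMIs. With each cell thinned to 5000 UMIs, 6.65% and 2.59% of fibroblast-like cells held the transcript. This left out the shallower cells and kept 2933 and 1504.

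*Plat*, the tissue activator, was at 53.5 CPM (3753 UMIs) with FGF8 and at 53.3 CPM (1905 UMIs) with BSA. The log2 ratio was 0.01, with an interval of −0.07 to 0.09, which spans 0. 38.1% and 34.3% of the cells held a *Plat* UMI, and 17.0% and 17.1% after thinning.

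*Plaur*, the urokinase receptor, was at 118 CPM (8288 UMIs) with FGF8 and at 53.4 CPM (1907 UMIs) with BSA, a 2.22-fold difference (log2 1.15, interval 1.08 to 1.22). The share of cells with a UMI was closer, at 49.8% and 42.9%. 10 or more *Plaur* UMIs were counted in 249 FGF8 cells (6.96%) and in 18 BSA cells (0.98%). Of these cells, 242 and 15 were in the Prg4/Il1rl1 subcluster described below, which had the most UMIs per cell (medians of 34272 and 30931.5). The counts were not corrected for depth or for the size of that subcluster. After thinning, 27.9% and 18.6% of cells held the transcript, beside 2.47% and 2.90% of erythroid-like cells.

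Neutrophils express *Plaur* at a high level, and the summed level of their 6 markers in fibroblast-like cells was 38.4 CPM with FGF8 and 9.68 CPM with BSA. All 5 of these markers with at least 10 UMIs were higher with FGF8, and the sixth, Ly6g, had 0 UMIs in both libraries. A UMI of *S100a8* or *S100a9*, which neutrophils produce in abundance, was found in 18.3% of FGF8 and 7.80% of BSA fibroblast-like cells. Without those cells the log2 ratio of *Plaur* was 1.10 and that of *Plau* 1.50. Removing them does not take out neutrophil transcripts from cells without such a UMI. The part of neutrophil transcripts in these ratios was not tested.

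*Serpine2*, protease nexin-1, was at 105 CPM (7360 UMIs) with FGF8 and at 75.4 CPM (2695 UMIs) with BSA (log2 0.48, interval 0.41 to 0.54). It was unevenly spread over cells: the 10% of cells with the most transcripts held 82.8% of its UMIs with FGF8 and 85.9% with BSA, and single cells reached 231 and 132 UMIs. 30.8% and 24.7% of cells held a UMI, and 18.6% and 14.4% after thinning. *Serpinb2*, the intracellular activator inhibitor, was at 0.96 CPM (67 UMIs) with FGF8 and at 0.45 CPM (16 UMIs) with BSA (log2 1.09, interval 0.29 to 1.98). Its level in erythroid-like cells was 1.95 and 0.70 CPM, and 1.54% and 0.81% of fibroblast-like cells held a UMI beside 1.47% and 1.22% of erythroid-like cells. *Serpinb2* counts in fibroblast-like cells were therefore at the level of the background, and 1 of the 3 members past 2-fold rests on them.

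*Serpinf1*, which encodes PEDF, went the other way, at 385 CPM (27020 UMIs) with FGF8 and at 613 CPM (21894 UMIs) with BSA. The level was 1.59-fold higher with BSA, a log2 ratio of −0.67 (interval −0.69 to −0.64). The gene was found in most cells of both libraries, 81.2% and 84.9%, and in 76.0% and 86.0% after thinning. *Serpinh1*, the collagen chaperone, was at 1015 CPM (71166 UMIs) with FGF8 and at 1205 CPM (43066 UMIs) with BSA (log2 −0.25, interval −0.26 to −0.23). It was found in 90.4% and 92.6% of cells.

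**Figure D1:**
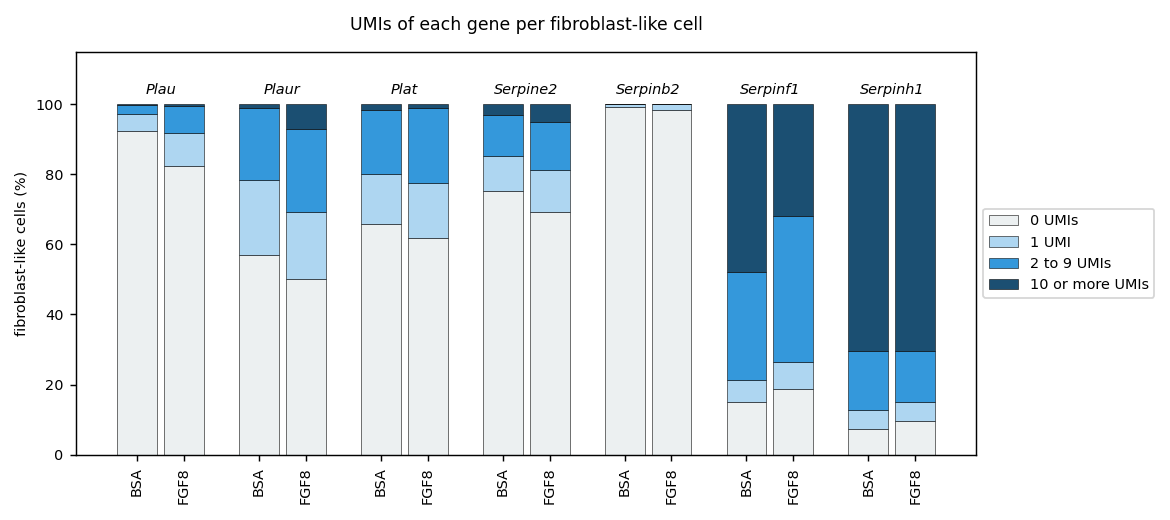
Share of fibroblast-like cells (vertical axis, %) by the number of UMIs of each gene, with 1 bar for the BSA library (1845 cells) and 1 for the FGF8 library (3579 cells). The pale band at the bottom is cells with 0 UMIs, and the darkest band is cells with 10 or more, which for *Plaur* is 0.98% with BSA and 6.96% with FGF8 and for *Serpinf1* is smaller with FGF8.

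The direction of *Plaur*, *Serpinf1* and *Serpinh1* was the same under all 24 alternative settings tried. These settings reuse the same libraries, several change few cells or values, and none replaces a replicate. *Plau* was past 2-fold in each of 23 settings, the 24th being the removal of its highest cells, which took out every BSA cell with a *Plau* UMI and so gives no ratio. *Plaur* was past 2-fold in 19 of 24 and was lowest, at 0.76, when the fibroblast-like subclusters were weighted alike in both libraries. *Plau* was lowest, at 1.10, under a stricter cell filter. *Serpine2* ranged from −0.16 to 0.76 and *Plat* from −0.13 to 0.39, with 13 of 24 values below 0. *Serpinb2* was past 2-fold in 12 of 23 settings, and the count of members past 2-fold higher was 3 in 12 of 26 settings, 2 in 10 and 1 in 4.

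**Figure D2:**
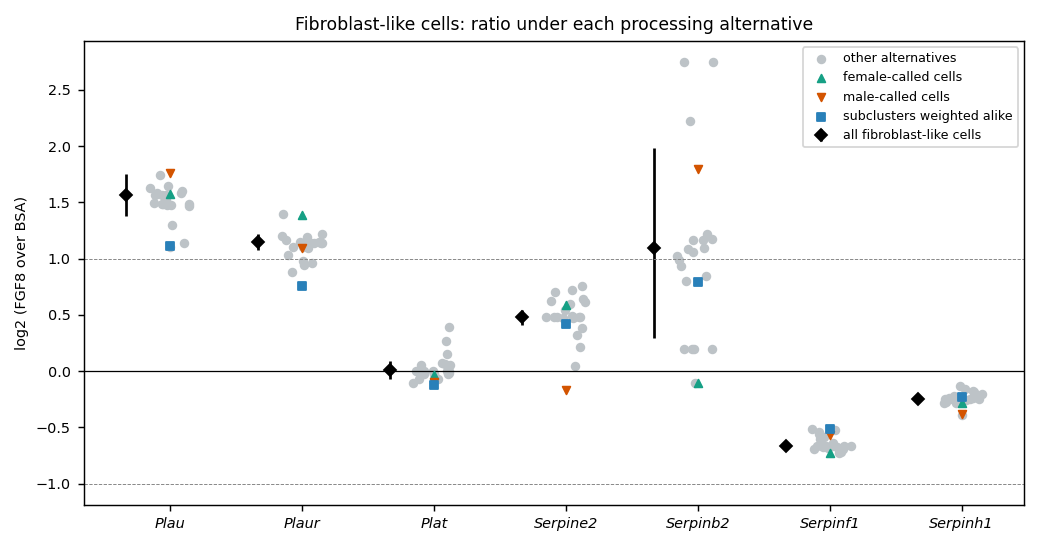
Log2 ratio of CPM (FGF8 over BSA, vertical axis) of each gene in fibroblast-like cells, for the reported setting with its exact 95% interval and for each alternative setting as a smaller point. Dashed lines mark 2-fold, and *Plau* without its highest cells, which left 0 BSA UMIs, is not drawn. The points of *Plau* stay above the upper dashed line, and those of *Serpinf1* and *Serpinh1* stay below 0.

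The levels of each gene over all cell types showed where it was transcribed. Of the named types, *Plau* was highest in mast-like cells, at 121 CPM in the FGF8 library (35 UMIs in 56 cells) and 60.4 CPM in the BSA library (20 UMIs in 38 cells), where its interval overlapped those of macrophage-like and endothelial-like cells. An unnamed low-UMI group led by *Ptpro* and *Fyb* was at 128 CPM with FGF8 and 9.90 CPM with BSA, but on 18 UMIs and 1 UMI, and its interval in the FGF8 library overlapped that of mast-like cells. Macrophage-like cells followed at 61.9 and 46.7 CPM, then endothelial-like cells at 50.6 and 35.8 CPM, and the intervals of these 2 types overlapped in both libraries. Monocyte or dendritic-like cells were at 27.6 and 21.9 CPM. Fibroblast-like cells had rank 6 of the 13 groups with FGF8 and rank 10 with BSA, but neighbouring ranks were not all apart. Among others, their interval overlapped those of monocyte or dendritic-like and chondrocyte-like cells with FGF8. With BSA it overlapped those of neutrophil-like cells and the unnamed group. Erythroid-like cells were last, at 1.51 CPM and 0.

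*Plat* was highest in endothelial-like cells with FGF8 and in fibroblast-like cells with BSA. With FGF8 endothelial-like cells were highest, at 68.7 CPM (interval 58.0 to 80.7), beyond the intervals of fibroblast-like cells at 53.5 (51.8 to 55.3) while smooth muscle or pericyte-like cells at 51.5 CPM (44.4 to 59.4) overlapped both. With BSA the order was fibroblast-like at 53.3, smooth muscle or pericyte-like at 50.4, keratinocyte-like at 37.0, Schwann-like at 35.3 and endothelial-like cells at 27.4 CPM. Each adjacent pair of that BSA order overlapped in its intervals. Macrophage-like, lymphocyte-like, monocyte or dendritic-like and chondrocyte-like cells were under 5 CPM in both libraries, and mast-like cells held 0 UMIs.

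*Plaur* was highest in neutrophil-like cells in both libraries, at 738 CPM (1244 UMIs) with FGF8 and 837 CPM (551 UMIs) with BSA, with the other types far below. With FGF8, chondrocyte-like cells (182 CPM) and macrophage-like cells (178 CPM) came next with overlapping intervals, and fibroblast-like cells followed at 118 CPM. With BSA, of the named types, macrophage-like cells (151 CPM) and monocyte or dendritic-like cells (126 CPM) came before endothelial-like (96.3 CPM), chondrocyte-like (85.4 CPM) and fibroblast-like cells (53.4 CPM). The fibroblast-like level with BSA lay below that of chondrocyte-like cells beyond both intervals. Schwann-like and erythroid-like cells were lowest, under 12 CPM in both libraries.

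*Serpine2* was highest in smooth muscle or pericyte-like cells, at 677 CPM (2484 UMIs) with FGF8 and 738 CPM (2140 UMIs) with BSA, and 93.0% and 94.1% of these cells held a UMI. Schwann-like cells were at 355 and 361 CPM. Chondrocyte-like cells stood between them with FGF8, at 572 CPM, and below them with BSA, at 156 CPM, and in both libraries these 3 types were apart beyond their intervals. Fibroblast-like cells were the fourth in each library. Neutrophil-like cells of the FGF8 library came next at 87.2 CPM, but 80 of their 147 UMIs came from 1 cell.

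*Serpinb2* was a gene of keratinocyte-like cells, which remained after removal of the epithelium. They were at 236 CPM (970 UMIs, 239 cells) with FGF8 and at 214 CPM (444 UMIs, 174 cells) with BSA (log2 0.14, interval −0.02 to 0.31). Even there it was concentrated, since 24 cells of the FGF8 library held 96.8% of its UMIs and 16 cells of the BSA library held all of them. The 23 UMIs in lymphocyte-like cells with FGF8 came from 2 cells, 1 of which held 21, and the 17 UMIs in mast-like cells came from 1 cell. All other types were under 8 CPM in both libraries.

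*Serpinf1* and *Serpinh1* were both highest in fibroblast-like cells. For *Serpinf1* the next type in the FGF8 library was neutrophil-like at 97.9 CPM, whose interval overlapped that of smooth muscle or pericyte-like cells at 94.8 CPM, and in the BSA library it was chondrocyte-like at 102 CPM, which overlapped erythroid-like at 95.4 CPM. Fibroblast-like cells were thus well apart from all other types for *Serpinf1*. A *Serpinf1* UMI was found in 8.32% of erythroid-like cells with FGF8 and in 17.1% with BSA. In the BSA library 8 of 82 such cells held 95.6% of the 136 UMIs, so that share is not read as an even background. For *Serpinh1* chondrocyte-like cells of the BSA library, at 1195 CPM, overlapped fibroblast-like cells at 1205 CPM. With FGF8 smooth muscle or pericyte-like cells were second, at 881 CPM, and chondrocyte-like cells (608 CPM) overlapped endothelial-like cells (604 CPM). All 132 chondrocyte-like cells of the FGF8 library and all 52 of the BSA library held a *Serpinh1* UMI.

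**Figure D3:**
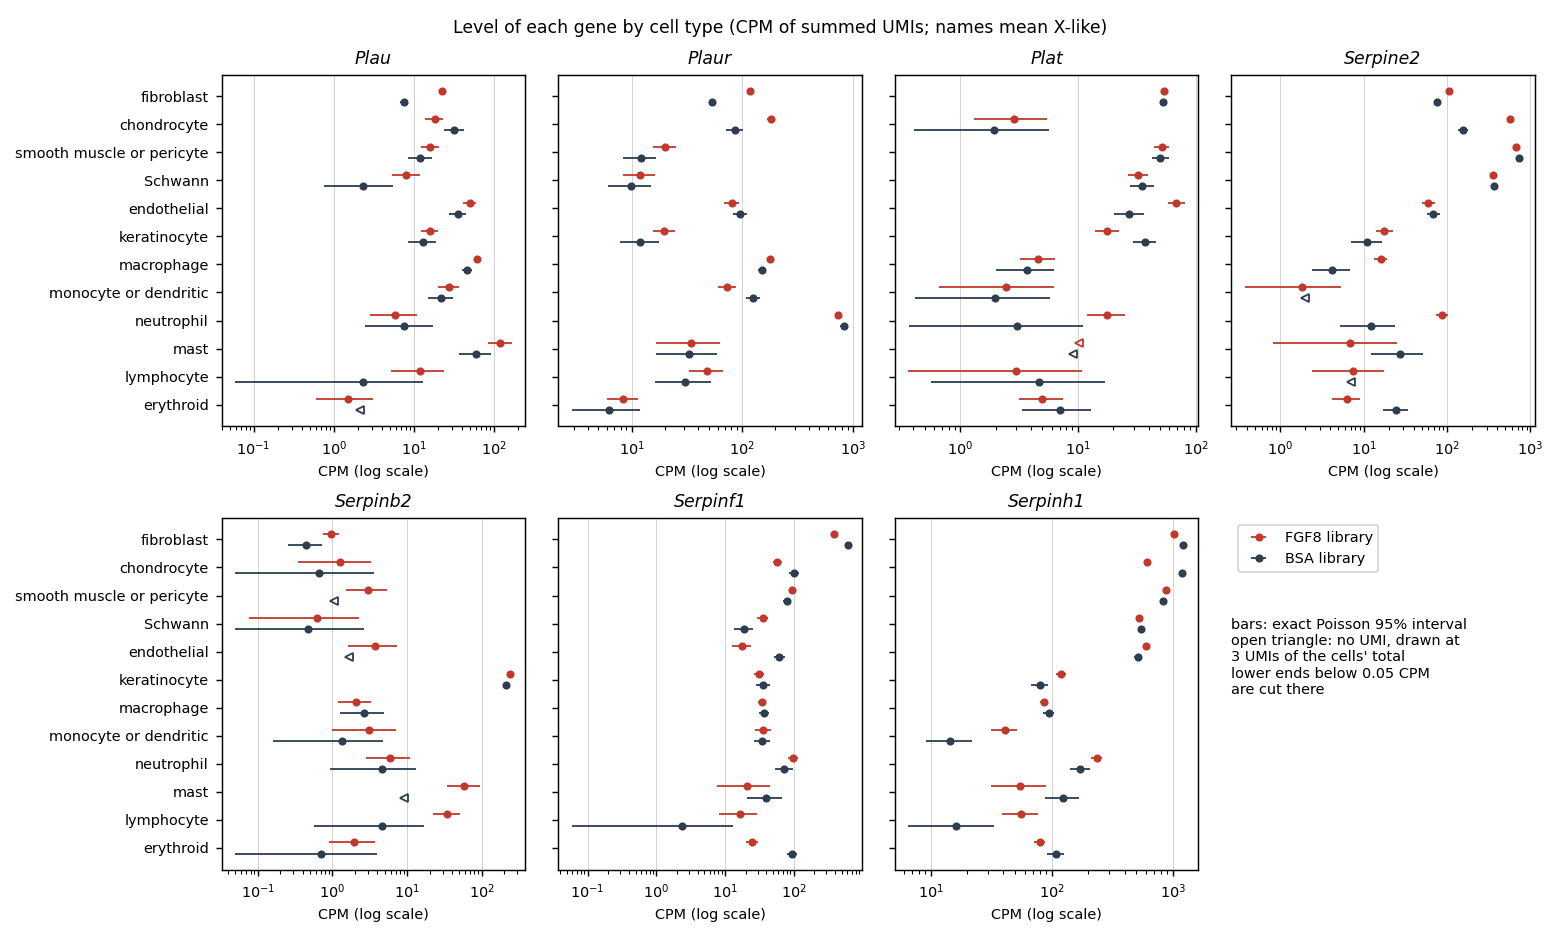
Level of each gene (horizontal axis, CPM on a log scale) in each cell type, with red points for the FGF8 library and dark points for the BSA library and bars for exact Poisson 95% intervals, cut at 0.05 CPM. An open triangle marks a type with no UMI, drawn at 3 UMIs of its total. *Plaur* is highest in neutrophil-like cells (738 and 837 CPM), *Serpine2* in smooth muscle or pericyte-like cells (677 and 738 CPM), *Serpinb2* in keratinocyte-like cells (236 and 214 CPM), and *Serpinf1* and *Serpinh1* in fibroblast-like cells.

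In chondrocyte-like cells, 132 with FGF8 and 52 with BSA, *Serpine2* and *Plaur* were more than 2-fold higher with FGF8. No ratio was taken within a sex in these cells or in the endothelial-like cells below, although the sexes were unevenly mixed. *Serpine2* was at 572 CPM (1789 UMIs) with FGF8 and at 156 CPM (239 UMIs) with BSA, a 3.67-fold difference (log2 1.88, interval 1.68 to 2.08). 81.1% and 57.7% of these cells held a *Serpine2* UMI, and 59.5% and 34.6% after thinning to 5000 UMIs. *Plaur* was 2.13-fold higher with FGF8 (182 against 85.4 CPM, log2 1.09, interval 0.82 to 1.38), and 48.9% against 28.8% of thinned cells held it, with overlapping intervals.

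*Plau*, *Serpinf1* and *Serpinh1* were lower with FGF8 in chondrocyte-like cells. *Serpinh1* was at 608 CPM (1901 UMIs) with FGF8 and at 1195 CPM (1833 UMIs) with BSA (log2 −0.97, interval −1.07 to −0.88), and 84.0% against 98.1% of thinned cells held it. *Serpinf1* was at 57.9 and 102 CPM (log2 −0.82, interval −1.14 to −0.50). *Plau* was at 18.2 CPM (57 UMIs) and 31.9 CPM (49 UMIs), a log2 ratio of −0.81 (interval −1.39 to −0.23), and 1 BSA cell held 22 of those 49 UMIs. Of the 6 members with at least 10 UMIs, 2 were thus more than 2-fold higher and 0 more than 2-fold lower, where 10.9% and 6.86% of the 11958 genes counted in these cells were.

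In endothelial-like cells, 142 with FGF8 and 120 with BSA, the tissue activator gene *Plat* was at 68.7 CPM (148 UMIs) and 27.4 CPM (49 UMIs), 2.50-fold higher with FGF8 (log2 1.32, interval 0.85 to 1.82). 38.0% and 28.3% of the cells held a UMI, but after thinning to 5000 UMIs 18.7% and 16.1% did, with overlapping intervals. *Serpinf1* was at 17.6 CPM (38 UMIs) and 62.2 CPM (111 UMIs), 3.53-fold higher with BSA (log2 −1.82, interval −2.39 to −1.27), and 5.61% against 22.6% of thinned cells held it. *Serpinf1* in erythroid-like cells was also lower with FGF8, at 24.9 against 95.4 CPM (log2 −1.94), where 8 of 82 BSA cells held 95.6% of the 136 UMIs, and its part in the endothelial-like value was not tested. *Plau* was at 50.6 and 35.8 CPM (log2 0.50, interval 0.04 to 0.97), while 13.1% with FGF8 and 22.6% with BSA of thinned cells held it, with overlapping intervals, and *Serpinh1* at 604 and 514 CPM (log2 0.23, interval 0.11 to 0.36). Of the 6 members counted, 1 was more than 2-fold higher and 1 more than 2-fold lower, beside 5.8% and 5.8% of 12260 genes.

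Among the immune cells, *Plau* and *Plaur* were slightly higher with FGF8 in macrophage-like cells (log2 0.41 and 0.24, intervals 0.15 to 0.66 and 0.10 to 0.38). *Plaur* was lower with FGF8 in monocyte or dendritic-like cells, at 72.9 CPM (119 UMIs) against 126 CPM (189 UMIs), a log2 ratio of −0.78 (interval −1.13 to −0.45), and 23.4% against 41.8% of thinned cells held it. In neutrophil-like cells the *Plaur* ratio was −0.18 (interval −0.33 to −0.03). *Plat* was at 2.55 there on 30 against 2 UMIs (interval 0.57 to 5.66). *Serpine2* was at 2.84 on 147 against 8 UMIs (interval 1.83 to 4.08), with 80 of the 147 from 1 cell. In keratinocyte-like cells *Plat* was lower with FGF8, at 17.8 against 37.0 CPM (log2 −1.06, interval −1.54 to −0.58), while *Plaur* and *Serpinh1* had ratios of 0.71 (interval 0.05 to 1.42) and 0.58 (0.33 to 0.85). *Serpine2* there was at 0.68, with an interval of −0.01 to 1.43 that spans 0. The intervals of *Plat* spanned 0 in smooth muscle or pericyte-like cells (log2 0.03, interval −0.29 to 0.35) and in Schwann-like cells (−0.12, interval −0.57 to 0.32). *Serpine2* in Schwann-like cells differed by −0.03 (interval −0.16 to 0.11). *Plau* in these cells was at 1.78 on 26 against 5 UMIs (interval 0.38 to 3.52), and *Serpinf1* at 0.92 on 114 against 40 UMIs (interval 0.38 to 1.47).

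**Figure D4:**
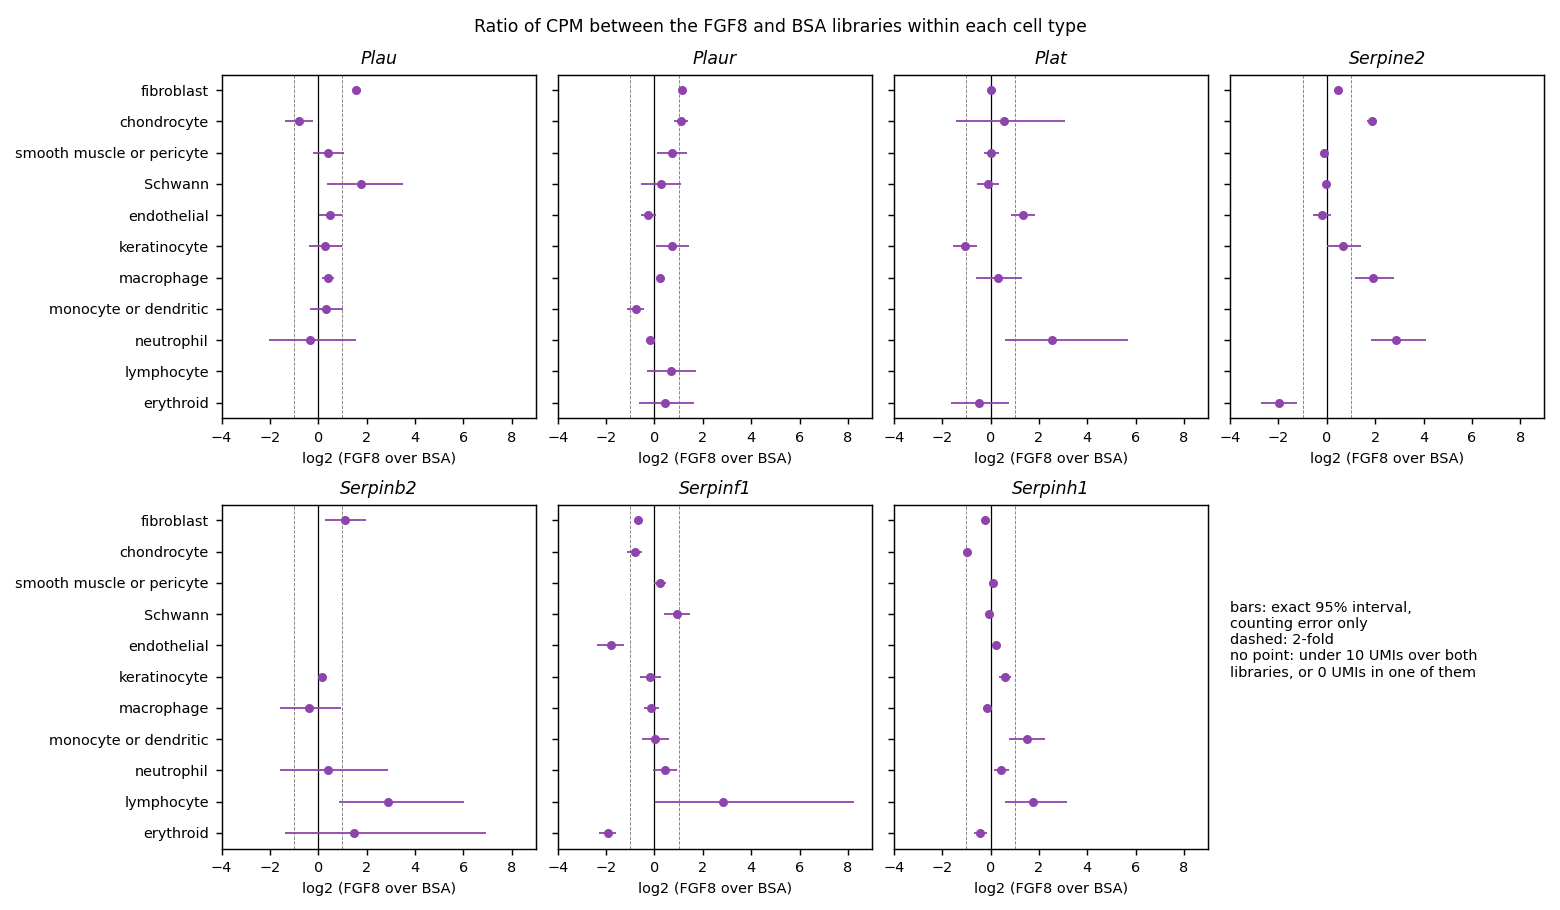
Log2 ratio of CPM (FGF8 over BSA, horizontal axis) of each gene in each cell type with at least 50 cells in both libraries, with exact 95% intervals that cover counting error only. Dashed lines mark 2-fold. *Serpine2* in chondrocyte-like cells (1.88) and *Plat* in endothelial-like cells (1.32) lie to the right of their fibroblast-like values, and *Serpinf1* lies to the left of 0 in fibroblast-like (−0.67), chondrocyte-like (−0.82) and endothelial-like (−1.82) cells.

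Fibroblast-like cells were re-clustered into 6 subclusters, named here by their 2 leading genes. Only Tmem132c/Nrg1 and Agtr2/Lpl were named fibroblast by their markers (mean log2 fold 1.62 and 1.06 against all other kept cells). The best list of Prg4/Il1rl1 was that of tenocytes, at −0.11. Lars2/Camk1d and Kcnj3/Prlr had 0 detected markers of their best list. With Fmod/Kcnma1, these stayed in the fibroblast-like class as parts of the fibroblast cluster with no other name. The urokinase pair was concentrated in the Prg4/Il1rl1 subcluster, whose leading genes also include *Mmp3* and mitotic genes such as *Plk1*. It held 1077 cells (30.1% of fibroblast-like cells) with FGF8 and 284 (15.4%) with BSA, and 53.0% and 24.9% of their UMIs, but 73.9% and 49.1% of the *Plau* UMIs and 79.3% and 42.6% of the *Plaur* UMIs. With the subclusters weighted alike in both libraries the log2 ratios were 1.11 for *Plau* and 0.76 for *Plaur*.

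Within the Prg4/Il1rl1 subcluster, *Plau* was at 31.3 CPM (1161 UMIs) with FGF8 and at 14.9 CPM (133 UMIs) with BSA (log2 1.07, interval 0.81 to 1.34). *Plaur* was at 177 CPM (6573 UMIs) and 91.2 CPM (813 UMIs) (log2 0.96, interval 0.85 to 1.06), and 22.5% against 5.28% of the cells held 10 or more of its UMIs. 4 members were lower there with FGF8: *Plat* at 52.2 against 71.8 CPM (−0.46), *Serpine2* at 82.0 against 93.7 CPM (−0.19), *Serpinf1* at 268 against 519 CPM (−0.96) and *Serpinh1* at 915 against 1295 CPM (−0.50), each with an interval below 0. *Serpinb2* was near background (33 and 8 UMIs). 1 of the 7 members was more than 2-fold higher and 0 more than 2-fold lower, beside 5.4% and 9.13% of 17275 genes.

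The Fmod/Kcnma1 subcluster, 445 cells with FGF8 and 321 with BSA, was left without a cell type name. Its best marker list was that of osteoblasts (mean log2 fold 3.42 against all other kept cells), then that of tenocytes (2.41), whose markers *Fmod* and *Scx* were among its leading genes. *Serpine2* was at 227 CPM (2106 UMIs) there with FGF8 and at 78.3 CPM (626 UMIs) with BSA, 2.90-fold higher (log2 1.54, interval 1.41 to 1.67). 1 FGF8 cell held 231 of those UMIs, and after thinning 28.4% and 20.8% of cells held the transcript, with overlapping intervals. *Plau* was at 23.4 and 9.13 CPM (log2 1.36, interval 0.97 to 1.76) and *Plaur* at 58.9 and 47.0 CPM (0.32, interval 0.13 to 0.52). 2 of the 6 members counted were more than 2-fold higher and 0 more than 2-fold lower, beside 5.09% and 3.74% of 15307 genes. Without this subcluster the log2 ratio of *Serpine2* over all other fibroblast-like cells was 0.21 and that of *Plau* 1.64.

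*Plau* was higher with FGF8 in each of the 5 subclusters with at least 50 cells in both libraries, with log2 ratios from 0.64 to 1.36, of which that in the low-UMI Lars2/Camk1d subcluster (43 and 13 UMIs) had an interval spanning 0. Its level was lowest in the Tmem132c/Nrg1 subcluster, at 3.02 and 1.37 CPM (39 and 16 UMIs). *Plaur* was likewise higher in all 5, from 0.22 in Tmem132c/Nrg1 to 1.37 in Lars2/Camk1d cells. *Serpinf1* was lower with FGF8 in all 5, from −0.96 in Prg4/Il1rl1 to −0.09 in Tmem132c/Nrg1 cells. *Plat* went in both directions, with 47.5 against 31.4 CPM in Tmem132c/Nrg1 cells (log2 0.60, interval 0.41 to 0.79) and −0.46 in Prg4/Il1rl1 cells. *Serpinh1* had log2 ratios from −0.17 to 0.05 in the subclusters other than Prg4/Il1rl1.

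A subcluster of few cells, led by *Kcnj3* and *Prlr*, held 46 FGF8 and 23 BSA cells and the highest *Serpine2* level of any group, 2666 CPM (1229 UMIs) and 2106 CPM (697 UMIs). It made up 1.29% and 1.25% of fibroblast-like cells but held 16.7% and 25.9% of their *Serpine2* UMIs. *Plau* and *Plaur* were almost absent from it, with 1 and 1 UMI of *Plau* and 4 and 8 UMIs of *Plaur*. Without it the log2 ratio of *Serpine2* in fibroblast-like cells was 0.64. No ratio is read within so few cells.

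**Figure D5:**
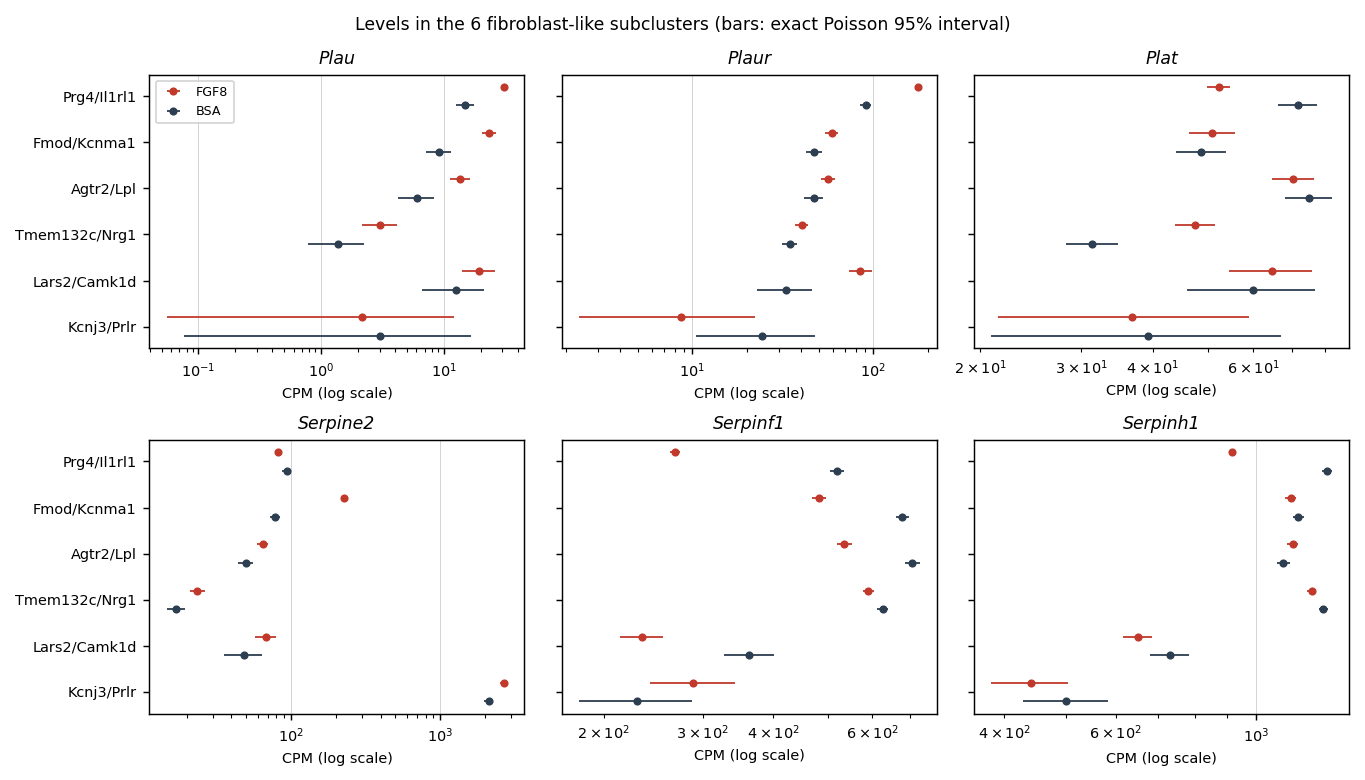
Level of 6 of the genes (horizontal axis, CPM on a log scale) in the 6 fibroblast-like subclusters, with red points for FGF8, dark points for BSA and exact Poisson 95% intervals. *Plau* and *Plaur* are highest in the Prg4/Il1rl1 subcluster of the FGF8 library (31.3 and 177 CPM), *Serpine2* in the Kcnj3/Prlr subcluster of both libraries (2666 and 2106 CPM), and *Serpinf1* is lower with FGF8 in each subcluster but Kcnj3/Prlr.

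Because the sexes were unevenly mixed, the fibroblast-like values were also taken within each sex, in 702 FGF8 and 1199 BSA female-called cells and in 2159 and 309 male-called cells. *Plau* was at 24.3 against 8.15 CPM in female-called cells (log2 1.58, interval 1.32 to 1.83) and at 21.1 against 6.23 CPM in male-called cells (1.76, interval 1.32 to 2.24). *Plaur* was at 137 against 52.4 CPM (1.39) and at 112 against 52.7 CPM (1.09). *Serpinf1* and *Serpinh1* were lower with FGF8 in both sexes, with log2 ratios of −0.73 (female) and −0.57 (male) for *Serpinf1* and of −0.28 and −0.38 for *Serpinh1*. The urokinase pair and both non-inhibitory serpins thus differed the same way within each sex.

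*Serpine2* did not keep its direction. It was at 98.3 against 65.2 CPM in female-called cells (log2 0.59, interval 0.49 to 0.70) and at 111 against 125 CPM in male-called cells (−0.16, interval −0.27 to −0.06). 366 of the 860 *Serpine2* UMIs of male-called BSA cells (42.6%) came from 7 cells of the Kcnj3/Prlr subcluster. Without that subcluster the levels were 91.3 against 73.0 CPM in male-called cells (log2 0.32) and 86.4 against 53.2 CPM in female-called cells (0.70).

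In fibroblast-like cells thinned to 5000 UMIs, those with a *Plau* transcript held *Plaur* more often than those without. With FGF8, 80 of 195 cells with *Plau* also held *Plaur* (41.0%, interval 34.0 to 48.3), against 26.9% of cells without *Plau* (25.3 to 28.6). With BSA the shares were 30.8% (12 of 39 cells) and 18.2%, with overlapping intervals. Within the Prg4/Il1rl1 subcluster the shares were 46.3% and 44.3% with FGF8 and 45.5% (5 of 11 cells) and 33.3% with BSA, with overlapping intervals in both libraries.

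Other genes of the plasminogen system were taken from a list of 16, and 15 of them reached 10 UMIs in fibroblast-like cells. 7 of these had a log2 ratio above 0, 0 were more than 2-fold higher and 2 more than 2-fold lower (6.8% and 4.99% of all genes), and their median was −0.02, near the −0.07 of all genes. The 2 were *Vtn*, encoding the adhesion protein vitronectin (9 against 22 UMIs), and *Klkb1*, encoding plasma prekallikrein (4 against 7 UMIs), both on few counts. *Plg* itself, plasminogen, was nearly absent (8 and 4 UMIs). *Vldlr*, a clearance receptor for activator and inhibitor complexes, was at 13.8 against 8.28 CPM (0.74), while its relative *Lrp1* differed by −0.02. The cell-surface plasminogen receptors *Plgrkt* and *S100a10* were at −0.43 and −0.14 and *Anxa2*, the partner of *S100a10*, at 0.00.

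Of the 64 genes with a Serpin symbol, 35 were counted in fibroblast-like cells, 22 had a log2 ratio above 0, 10 were more than 2-fold higher and 2 more than 2-fold lower, where 6.8% and 4.99% of all genes were, and the median was 0.38. Without the 4 members among them the counts were 9 and 2 of 31. Most of the genes past 2-fold, *Serpinb2* among them, had fewer than 100 UMIs over both libraries, and several had intervals that span 0. Of all genes with at least 100 UMIs, 3.36% were more than 2-fold higher and 2.15% more than 2-fold lower. With at least 100 UMIs, those past 2-fold were *Serpina3g* (352 and 53 UMIs, 5.02 against 1.48 CPM, log2 1.76, interval 1.34 to 2.20) and *Serpina3n* (3811 and 930 UMIs, 54.4 against 26.0 CPM, log2 1.06, interval 0.96 to 1.17). Both belong to the antichymotrypsin-like *Serpina3* cluster, whose near-identical copies can share reads, and the study had picked both from these same cells. Among abundant serpins of other types, *Serping1*, the C1 inhibitor, had a ratio of −0.47 and *Serpinb6a* one of 0.30.

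Beside *Serpinh1*, a list of 13 genes held collagens that Hsp47 binds, collagen-folding enzymes and the transcription factor gene *Creb3l1* (log2 −0.62). All 13 were counted, 4 with a log2 ratio above 0, 0 more than 2-fold higher and 1 more than 2-fold lower (6.8% and 4.99% of all genes), with a median of −0.35. The 1 was *Col1a1*, the α1 chain of type I collagen, at 6220 against 13293 CPM (log2 −1.10). *Col1a2*, *Col3a1* and *Col5a1* were at −0.88, −0.85 and −0.77, larger differences than the −0.25 of *Serpinh1*. The prolyl and lysyl hydroxylase genes went both ways, with *P4ha1*, *P4hb*, *Plod2* and *Plod3* at 0.20, 0.10, 0.11 and 0.31 and *P4ha2* and *Plod1* at −0.35 and −0.27. The peptidyl-prolyl isomerase gene *Fkbp10*, whose product works with Hsp47, was at −0.16. *Col1a1* and *Col1a2* are also 2 of the 6 fibroblast markers, whose summed level was 16291 CPM with FGF8 and 30608 CPM with BSA.

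Sums were taken for each cell type in each library with at least 50 cells, 24 in all. Mast-like cells and the unnamed group entered from the FGF8 library alone. The sums share libraries and depth, so a Pearson r over them is a description. By this r, the genes whose log2(CPM + 1) most followed each member were named. For *Plaur* they were *Tnfrsf23* (0.91), *Tlr2* (0.89) and *Tnfaip2* (0.86), and for *Plau* *Gm15726* (0.87), *Niban2* (0.86) and *Rab39* (0.83). *Plat* was nearest to *Cachd1* (0.93), *Serpine2* to *Timp3* (0.94), *Serpinb2* to the keratinocyte gene *Tgm3* (0.88) and *Serpinf1* to *P4ha3* (0.90). *Serpinh1* was nearest to *Fkbp10* and *Sparc* (0.98 each). Between members, r was 0.91 for *Serpine2* and *Serpinh1* and 0.42 for *Plau* and *Plaur*, whose highest types, mast-like and neutrophil-like, differ.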

How the data were processed

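Cells from the tissue distal to the P2 stump were captured with 10x Genomics Chromium 3′ v3.1 chemistry in 1 library per treatment. The authors counted reads with Cell Ranger 9.0.0 on GRCm39 and deposited raw counts of UMIs for each gene in each barcode, to which the filters named in their methods had not been applied. Their supplementary lists of fold changes and p-values were not used. The members and gene lists were chosen with earlier results of these data known.

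Cells were kept if they had more than 200 and fewer than 7500 genes and a mitochondrial share under 15%. They were merged, normalized with SCTransform (sctransform 0.4.2), integrated by CCA and clustered in Seurat 5.3.0 (R 4.3.3; 30 principal components, resolution 0.05, seed 42). The fibroblast and the mixed immune cluster were re-clustered at 0.2. The members and listed genes were left out of the 3000 variable features. Clusters were named X-like from marker lists, with a mean log2 fold of at least 1, a rule set after seeing the data, and names may differ from the study's. Subclusters of the fibroblast cluster that failed this rule, or that best matched tenocytes or osteoblasts, stayed in the fibroblast-like class. Only the Tmem132c/Nrg1 and Agtr2/Lpl subclusters met the rule for fibroblasts. A keratinocyte-like subcluster (239 FGF8 and 174 BSA cells) was taken out of the fibroblast-like class, also after seeing the data. Scrublet (scanpy 1.11.5) marked 0 cells in either library and so had not worked, and doublets were not removed. 1 alternative setting left out the 5% of cells with the highest Scrublet scores, which carries the same limit.

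Raw UMIs of each cell type were added up within a library and scaled to CPM (Python 3.11.15, numpy 2.4.6, scipy 1.17.1, pandas 2.3.3, matplotlib 3.10.9). Levels carry exact Poisson, shares Clopper-Pearson and log2 ratios exact conditional 95% intervals. For a gene with 0 UMIs in 1 library, 3 counts over that cell type stood in as a floor. Ratios were read in types with at least 50 cells in both libraries, and genes with at least 10 UMIs over both were counted. Cells with a Xist UMI and no Y-linked UMI were called female, and the reverse male. The ratio script was tested on simulated counts. Alternatives covered the cell filter, integration, resolution, features, thinning, weights, centring, sex and removal of groups of cells, of which those on subclusters, S100a8 or S100a9 and shared barcodes were added after seeing the data. Genes named beyond the members are those of the plasminogen and collagen lists, Serpin genes past 2-fold with at least 100 UMIs, and the 3 genes most like each member. The values of 1 listed gene are not reported here.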

Additional observations from a re-analysis of the deposited data

Results flagged for a closer look

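Several log2 ratios (FGF8 over BSA) pointed the opposite way to the same gene in fibroblast-like cells, with both intervals on their own side of 0. With 1 library per group, none of these differences was tested, and the intervals behind them cover counting error only.

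*Plau* was at −0.81 in chondrocyte-like cells beside 1.56 in fibroblast-like cells. The chondrocyte-like value rests on 57 and 49 UMIs, and 1 BSA cell held 22 of those 49, which its interval does not cover. *Plaur* was at −0.18 in neutrophil-like and −0.78 in monocyte or dendritic-like cells beside 1.15. *Serpine2* was at −1.97 in erythroid-like and −0.13 in smooth muscle or pericyte-like cells beside 0.48, and the erythroid-like value rests on 29 and 35 UMIs. *Serpinf1* was at 0.92 in Schwann-like and 2.82 in lymphocyte-like cells beside −0.67, the latter on 11 UMIs against 1. *Serpinh1* was at 0.44 in neutrophil-like, 0.090 in smooth muscle or pericyte-like, 0.58 in keratinocyte-like, 1.49 in monocyte or dendritic-like, 0.23 in endothelial-like and 1.77 in lymphocyte-like cells beside −0.25. In the neutrophil-like, monocyte or dendritic-like and lymphocyte-like cells *Serpinh1* was low, on at most 397 UMIs a library.

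Within fibroblast-like cells, *Plat* was at 0.60 in the Tmem132c/Nrg1 subcluster and at −0.46 in the Prg4/Il1rl1 subcluster. *Serpine2* was at 1.54 in the Fmod/Kcnma1 subcluster and at −0.19 in the Prg4/Il1rl1 subcluster. *Serpinh1* was at 0.048 in the Agtr2/Lpl subcluster and at −0.50 in the Prg4/Il1rl1 subcluster. By sex, *Serpine2* was at 0.59 in female-called and at −0.16 in male-called fibroblast-like cells.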

How the results depend on the processing

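No paired analysis was possible because each group was 1 library, and for the same reason no replicate could be left out. Of the log2 ratios in fibroblast-like cells whose interval lay on 1 side of 0, 3 values turned their sign: *Serpinb2* to −0.11 in female-called cells alone and to −0.10 in those without the Kcnj3/Prlr subcluster, and *Serpine2* to −0.16 in male-called cells alone. The cause was not tested. *Plat*, whose interval spans 0, was below 0 in 13 of 24 settings. The count of members more than 2-fold higher, 3 as reported, was 1 under the stricter cell filter, with cells thinned to 5000 UMIs, without the 10% of cells with the most UMIs of the gene, and with subclusters weighted alike. In the third of these the 1 was *Plau*, whose BSA count was then 0 by construction. It was 2 in 10 of the 26 settings, *Plau* with *Plaur* in 9 of them, and 3 in 12, and the count more than 2-fold lower was 0 in each. Over all alternatives *Plau* ranged from 1.10 to 1.76 (without its highest cells, 273 UMIs stood against 0 and no ratio is read), *Plaur* from 0.76 to 1.39, *Plat* from −0.13 to 0.39, *Serpine2* from −0.16 to 0.76, *Serpinb2* from −0.11 to 2.75, *Serpinf1* from −0.73 to −0.51 and *Serpinh1* from −0.39 to −0.13. *Serpine2* was at 0.05 without a cell filter and *Serpinb2* at 0.20 with the keratinocyte-like subcluster included. Depth limits values on few UMIs, such as *Serpinb2* in fibroblast-like cells (67 and 16 UMIs, interval 0.29 to 1.98). Of the levels by cell type, 107 moved beyond their interval and 75 did not when cells were thinned to 2000 UMIs. Under the stricter filter 65 moved and 117 did not, and without a filter 31 moved and 151 did not. The orders of cell types given above carry this limit. Of the shares of cells with a UMI, which fall with depth, 122 moved and 60 did not at 5000 UMIs. At 2000 UMIs 140 moved and 42 did not.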
